A study of Mus musculus with 4 samples.

Results

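Nuclear tRNA genes are the short genes, transcribed by RNA polymerase III, that encode the transfer RNAs of the cytosol. Their contact with the transcription factor Runx3 was read from 2 peak lists of CD8 T cells of the mouse spleen. The members were all genes of biotype tRNA on chromosomes 1 to 19 and X in the RefSeq table of GRCm38.p6 (mm10), grouped by isotype (the amino acid carried) and by genomic cluster. The table held 408 such genes, of which 403 had a position on a chromosome and were used, out of 49209 genes of all kinds. The other 5 lay on scaffolds outside the chromosome sequences and were not used here. A symbol such as n-THgtg4 gives the amino acid in its single-letter code (H, histidine), the anticodon (gtg) and a copy number.

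The series holds 4 libraries of wild type CD8 T cells isolated with magnetic beads against CD8a from adult spleen, 1 library per group. Chromatin immunoprecipitation (ChIP) used 50000000 frozen cells from 5 mice and a rabbit anti-Runx3 serum at 1 in 200. CUT&RUN, in which the antibody brings a nuclease to its target in permeabilized cells, used 150000 fresh cells from 1 mouse and the same serum at the same dilution. A whole cell extract without antibody was the control of the ChIP list, and a CUT&RUN library with normal rabbit serum was not analysed here. After removal of duplicates the ChIP library had 9532996 fragments, which gave 13166 peaks. The CUT&RUN library had 14068364, which gave 15891. The ChIP library had lost 80.3% of its fragments as duplicates and the CUT&RUN library 21.4%. All 6 markers of CD8 T cells in the marker list had a summit within 10 kb in both lists, against 40.9% of protein-coding genes in ChIP and 45.9% in CUT&RUN. The 3 other marker lists had fewer. B cells had 2 of 4 in each (50%), above both shares of protein-coding genes. Myeloid cells had 0 of 4 and 1 of 4, and erythroid cells 1 of 3 in each. Within 500 bp ChIP had 2 of the 6 CD8 T cell markers (33.3%), against 31.3% of protein-coding genes. CUT&RUN had all 6, against 36.5%. Cd8a and Cd8b1 had no ChIP summit within 500 bp. In that window B cell markers had 0 of 4 in each list. Myeloid markers had 0 of 4 and 1 of 4, and erythroid markers 1 of 3 in each.

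RNA polymerase III reads most tRNA genes from a promoter that lies inside the transcribed sequence, made of an A box and a B box to which the factor TFIIIC binds. TFIIIC brings TFIIIB to a site just upstream, and TFIIIB in turn recruits the polymerase. Mammalian tRNA genes occur in many near-identical copies, often in clusters, and only a part of them is active in a given cell type. Runx3 is a DNA-binding factor of the RUNX family with a central role in the CD8 lineage, and it recognises TGTGGT or TGCGGT.

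The deposited tables and the RefSeq promoter table had no entry for a tRNA gene under its own name. On the chromosomes searched, 10 promoter windows of neighbouring genes overlapped a member. The search did not take in every chromosome with members, so further windows may exist. These 10 windows are the source of the sequences printed here (RefSeq, GRCm38.p6). In 6 of them at least 60 bases of the tRNA gene were covered. These are shown first because they set 2 genes with a ChIP summit within 100 bp beside 4 genes without. Each is written in the direction of its B box, with the B box core (GTTCNANNC, searched on both strands) in capitals.
n-TTagt9: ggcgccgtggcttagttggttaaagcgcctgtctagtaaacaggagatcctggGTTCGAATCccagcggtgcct
n-TLaag4: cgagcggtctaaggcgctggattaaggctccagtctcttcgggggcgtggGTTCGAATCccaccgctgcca
n-TRtcg5: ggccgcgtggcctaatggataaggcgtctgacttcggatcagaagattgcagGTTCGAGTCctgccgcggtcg
n-TVcac9: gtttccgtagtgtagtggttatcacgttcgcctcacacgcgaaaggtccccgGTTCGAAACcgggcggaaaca
n-TAagc16: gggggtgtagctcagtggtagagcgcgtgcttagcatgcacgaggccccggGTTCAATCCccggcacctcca
n-THgtg7: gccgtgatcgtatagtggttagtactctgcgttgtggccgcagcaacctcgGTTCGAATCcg

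The first and the second of these had a ChIP summit within 100 bp, and the other four had none. n-TTagt9 lies on chr7:35234770-35234843 (minus strand by its B box), n-TLaag4 on chr7:120917517-120917598 (plus) and n-TRtcg5 on chr7:79466419-79466491 (plus). n-TVcac9 lies on chr13:23446142-23446214 (minus), n-TAagc16 on chr13:21222586-21222657 (plus) and n-THgtg7 on chr3:96452495-96452566 (plus). The covered part is the whole gene for n-TTagt9, n-TRtcg5, n-TVcac9 and n-TAagc16, 71 of 82 bases for n-TLaag4 and 62 of 72 for n-THgtg7. All 6 held the B box core, whether or not a ChIP summit lay within 100 bp. Of the genes without one, n-TRtcg5 had a ChIP summit at 282 bp (pileup 24) and a CUT&RUN summit at 118 bp. The core stood in 9.36% of all 32619 promoter windows of 300 bases. These windows are longer than the tRNA parts above, so the share is no like-for-like comparison. A match describes the letters only.

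ChIP placed summits, the positions of highest coverage within a peak, on tRNA genes far more often than on other genes of their size, and CUT&RUN did so rarely. A ChIP summit lay within 100 bp of 43 of the 403 genes (10.7%, exact 95% interval 7.83 to 14.1). The same window held a ChIP summit for 14.8% of all RefSeq genes, most of which are much longer, and for 0.435% of the 2530 other genes no longer than the longest tRNA gene (107 bp). A CUT&RUN summit lay within 100 bp of 6 tRNA genes (1.49%, 0.548 to 3.21), against 17.0% of all genes and 0.514% of the other short genes. Within 500 bp there were 89 tRNA genes with a ChIP summit (22.1%, 18.1 to 26.5) and 44 with a CUT&RUN summit (10.9%, 8.05 to 14.4). The other short genes had 2.13% and 2.09% in that window. The lists were cut at unequal q, 0.05 for ChIP and 1e-05 for CUT&RUN. With ChIP also at 1e-05 its share within 500 bp was 12.9%, inside the CUT&RUN interval, and its share within 100 bp was 6.20%, above it. With 1 library per assay these values have no replicate check, and the intervals cover counting error only.

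Other classes of small RNA gene stood lower in ChIP. They were not split by polymerase, and the snRNA class holds the RNA polymerase III gene Rn7sk. Within 100 bp, ChIP had a summit at 2 of 1330 snoRNA genes (0.150%), 7 of 996 snRNA genes (0.703%) and 14 of 1228 miRNA genes (1.14%). CUT&RUN had 3 (0.226%), 24 (2.41%) and 12 (0.977%) of them. The ChIP interval of the tRNA genes did not overlap the interval of any of these classes, whereas the CUT&RUN interval of the tRNA genes overlapped those of the snRNA, miRNA and snoRNA genes.

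**Figure D1:**
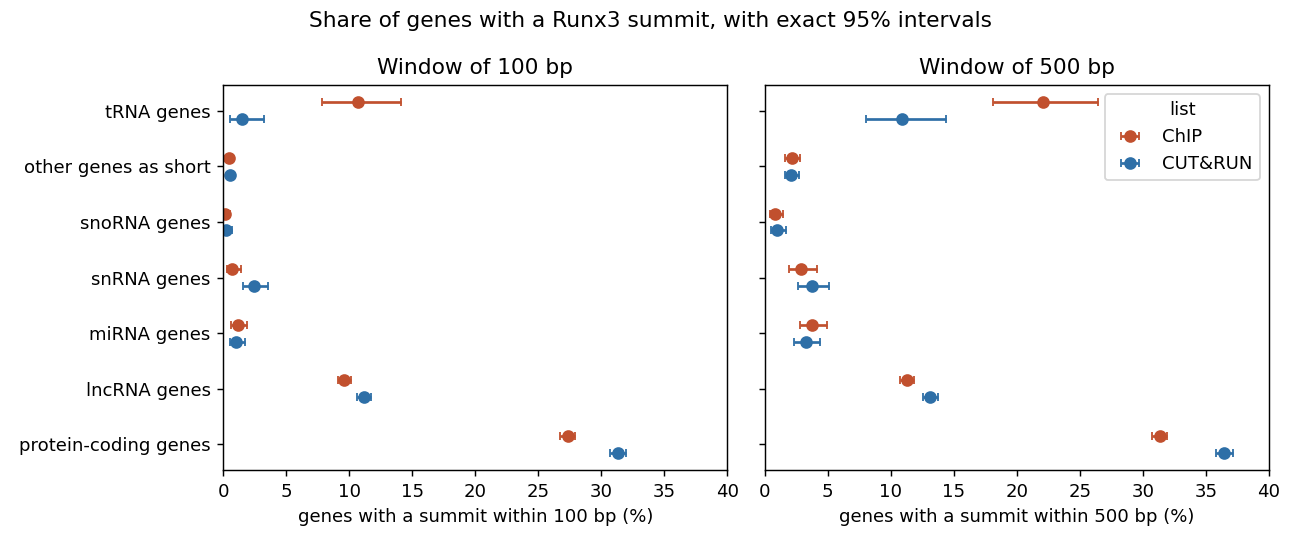
Share of genes of each class (%) with a Runx3 summit within 100 bp (left) or 500 bp (right) of the gene in the ChIP and CUT&RUN lists; points are shares and bars exact 95% intervals, and "other genes as short" are the 2530 non-tRNA genes of at most 107 bp. In ChIP the tRNA genes (10.7% and 22.1%) stand above all the small RNA classes; in CUT&RUN they stand near them at 100 bp (1.49%) and above them at 500 bp (10.9%).

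The assays also differed in where the summits lay. Of the 43 genes with a ChIP summit within 100 bp, 20 had it inside the gene and 17 at 1 to 50 bp. Their median distance from summit to gene centre was 38.5 bp. CUT&RUN had a summit inside 2 genes, and 38 of its 44 genes had the nearest summit at 101 to 500 bp. Of the genes with a summit within 500 bp, those within 100 bp made up 48.3% for ChIP (37.6 to 59.2) and 13.6% for CUT&RUN (5.17 to 27.4). At the limit of the smaller window, the last gene inside had its summit at 83 bp (ChIP) or 89 bp (CUT&RUN), and the first outside at 101 or 114 bp. For the larger window these distances were 487 and 493 bp inside, and 508 and 535 bp outside.

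**Figure D2:**
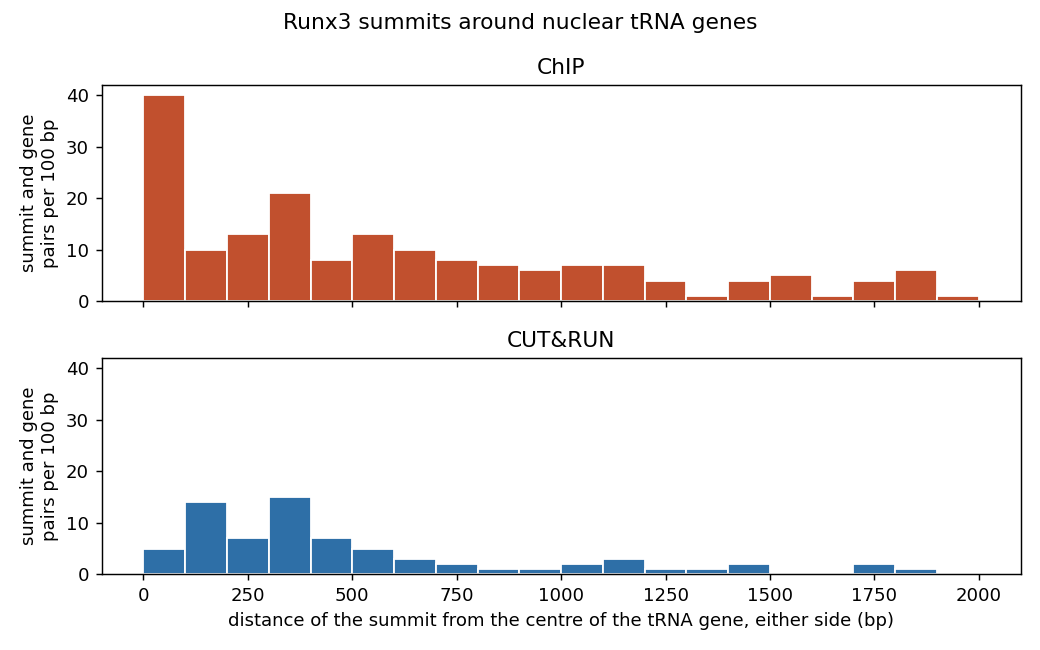
Number of pairs of a Runx3 summit and a nuclear tRNA gene by the distance of the summit from the centre of the gene, regardless of side, in bins of 100 bp, for ChIP (top) and CUT&RUN (bottom). ChIP has its highest bin at the gene itself (40 pairs under 100 bp); CUT&RUN has 5 pairs there and 43 from 100 to 500 bp.

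Few ChIP peaks at tRNA genes had a partner in CUT&RUN. The 43 ChIP summits within 100 bp belonged to 43 peaks, of which 9 overlapped a CUT&RUN peak by at least 1 bp (20.9%, 10.04 to 36.0), against 66.2% of the whole ChIP list. Overlap in the list rises with pileup, the number of fragments over the summit. At the pileups of these 43 peaks, the list's own shares would give 27.6 overlapping peaks (64.1%). In the class of 13 to 17 fragments 2 of 10 peaks at tRNA genes overlapped, against 80.3% of the list, and at 18 to 30 fragments 3 of 6 did, against 92.0%. Away from protein-coding gene edges (either end of a gene, 1 kb or more off) 5 of 33 overlapped (15.2%, 5.11 to 31.9), against 64.1% of the list there. Within 1 kb of such an edge 4 of 10 did (40%, 12.2 to 73.8), against 70.0%.

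In the other direction, 4 of the 6 CUT&RUN peaks within 100 bp and 30 of the 41 within 500 bp overlapped a ChIP peak (66.7% and 73.2%), against 58.8% of the CUT&RUN list. The interval at 500 bp, 57.1 to 85.8, includes the list's value. Besides the threshold on q, the lists differed in that only ChIP had a control. The CUT&RUN list came from an alignment named for nucleosome-free fragments, with a fragment size of 63 bp against 115 bp for ChIP. The part of the control, of fragment size and of read mapping among near-identical gene copies in the counts was not tested.

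**Figure D3:**
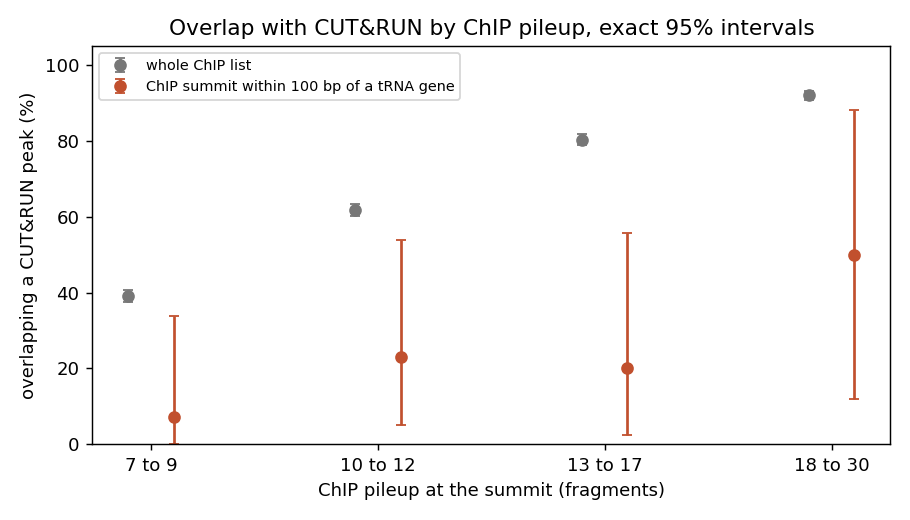
Share of ChIP peaks (%) that overlap a CUT&RUN peak, by ChIP pileup class, for the whole ChIP list and for the 43 peaks with a summit within 100 bp of a tRNA gene; bars are exact 95% intervals. The share rises with pileup in the list from 39.0% to 92.0%, and the peaks at tRNA genes lie below it in each of the 4 classes, with 1 of 14, 3 of 13, 2 of 10 and 3 of 6 overlapping.

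The ChIP peaks at tRNA genes were of ordinary height. Their pileups ran from 7 to 28 with a median of 11 (list median 12), and their folds over background from 3.77 to 13.6 with a median of 5.65 (list 6.12). Their median width was 273 bp (list 261 bp), and 1 of them stood in the top 10% of the list. Relative to the median of the list, their expected background, taken as pileup over fold, ranged from 0.948 to 1.06. This value is the caller's own, from a control whose alignment is named for the removal of non-unique reads. Whether these genes lie in high-background regions was not tested. The 6 CUT&RUN peaks had pileups of 13 to 30 with a median of 18.5 (list 25) and a median width of 75.5 bp (list 147 bp).

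Only 3 genes had a summit of both lists within 100 bp, out of 403. n-THgtg4, a histidine tRNA gene at chr2:122375494-122375565, had a ChIP summit at 122375504 (pileup 23, exact Poisson 95% interval 14.6 to 34.5). In CUT&RUN its summit was at 122375513, with a pileup of 22 (13.8 to 33.3). Both summits lay inside the gene. n-TTagt9, a threonine tRNA gene, had a pileup of 16 (9.15 to 26.0) in ChIP at 35234875 and of 30 (20.2 to 42.8) in CUT&RUN at 35234861. Both lay just outside the gene on the same side, 32 and 18 bp from it. At n-TEttc6, a glutamate tRNA gene at chr14:76152774-76152845, the summits at 76152736 (pileup 12, 6.20 to 21.0) and 76152760 (15, 8.40 to 24.7) lay 38 and 14 bp outside. None of the 3 genes lies inside a protein-coding gene, and the nearest edges are 6347 bp (Shf), 1390 bp (Wdr88) and 15395 bp (Nufip1) away. All 3 ChIP pileups have intervals that overlap each other.

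Among the windows searched, n-TTagt9 is the member whose whole sequence and both summits fall in a single RefSeq promoter window. It is that of Gm38989 on chr7:35234765-35235064 (minus strand). The tRNA gene is in capitals.
Gm38989 window: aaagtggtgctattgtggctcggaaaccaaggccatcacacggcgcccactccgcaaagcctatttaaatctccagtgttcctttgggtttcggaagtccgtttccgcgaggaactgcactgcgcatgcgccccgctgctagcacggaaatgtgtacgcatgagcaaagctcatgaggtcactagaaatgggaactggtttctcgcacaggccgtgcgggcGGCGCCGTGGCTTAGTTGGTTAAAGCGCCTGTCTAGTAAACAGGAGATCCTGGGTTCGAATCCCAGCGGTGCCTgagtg
Counted from the 5′ end of this window, the gene fills bases 222 to 295, the ChIP summit is at base 190 and the CUT&RUN summit at base 204. Read by its B box, the gene runs along the same strand, so both summits lie on its upstream side. Neither TGTGGT nor TGCGGT stood in the window on either strand. At least 1 of them stood in 22.3% of all promoter windows.

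Among the 10 tRNA genes with the best ranked ChIP summits within 100 bp, n-THgtg8 led. This histidine gene at chr3:96500366-96500437 had its summit at 96500400, inside the gene, with a pileup of 28 (18.6 to 40.5) and rank 848 of 13166. No CUT&RUN summit lay within 11129 bp of it. n-TEctc13, a glutamate gene 1 kb further along in the same cluster, had a pileup of 22 (13.8 to 33.3) with the nearest CUT&RUN summit 12210 bp away. The histidine genes n-THgtg4, n-THgtg3 and n-THgtg5 on chromosome 2 had pileups of 23, 23 and 16, all inside the genes. n-TDgtc8 (aspartate) had 19, n-TNgtt6 (asparagine) 18, and n-TStga3 (serine), n-TVaac3 (valine) and n-TKctt24 (lysine) 16 each. Of these 10 genes, n-TKctt24 lies inside a protein-coding gene, Rinl. The intervals of all 10 pileups overlap, so their order is within counting error.

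The asparagine gene n-TNgtt6 shows the more common case, a ChIP summit with no CUT&RUN summit nearby (35624 bp). The promoter window of Gm35090 on chr1:171033969-171034268 (minus strand) covers 47 of its 74 bases, in capitals.
Gm35090 window: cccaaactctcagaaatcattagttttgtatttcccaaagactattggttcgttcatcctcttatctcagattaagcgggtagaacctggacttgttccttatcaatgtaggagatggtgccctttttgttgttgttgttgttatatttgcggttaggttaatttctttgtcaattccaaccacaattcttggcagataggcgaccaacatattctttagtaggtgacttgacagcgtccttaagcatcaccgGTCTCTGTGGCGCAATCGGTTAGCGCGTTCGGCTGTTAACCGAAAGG
The ChIP summit, at 171034078, is at base 191 of this window. TGTGGT on the opposite strand spans from base 180 and TGCGGT on the printed strand from base 149, both outside the tRNA gene. Of the 10 overlapping windows, 2 held either motif, this one and that of Ndufs7.

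The 6 genes with a CUT&RUN summit within 100 bp included 3 that ChIP did not have in that window. n-TYgta2, a tyrosine gene on chromosome 3, had a summit inside it with a pileup of 18 (10.7 to 28.4), and its nearest ChIP summit was 103 bp away. n-TPtgg8, a proline gene on chromosome 7, had a pileup of 19 (11.4 to 29.7) at 63 bp, with no ChIP summit within 5502 bp. n-TLcag4, a leucine gene on chromosome 8, had a pileup of 13 (6.92 to 22.2) at 89 bp, with no ChIP summit within 36799 bp. The best rank of the 6 was 5080 of 15891, at n-TTagt9.

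At 500 bp the lists met more often. There, 31 genes had a summit in both, and the closest summits of the lists lay a median of 31 bp apart (1 to 422 bp), within 100 bp of each other at 20 genes. The ChIP summit was nearer to the gene at 19 of the 31, the CUT&RUN summit at 11, and 1 had equal distances. Of the 43 genes with a ChIP summit within 100 bp, 3 had a CUT&RUN summit in the same window, 7 had it at 101 to 500 bp and 33 had none within 500 bp.

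By ChIP pileup the highest site among these 31 genes was beside the promoter of Ndufs7, which encodes a subunit of respiratory complex I, and was picked out after its values were seen. n-TFgaa3 (phenylalanine, chr10:80248964-80249036) and n-TNgtt7 (asparagine, chr10:80249159-80249232) share a ChIP summit at 80249365 with a pileup of 41 (29.4 to 55.6) and rank 199, and a CUT&RUN summit at 80249384 with a pileup of 39. The summits lie 133 and 152 bp from n-TNgtt7. n-TNgtt7 lies within the annotated span of Ndufs7, which begins 54 bp before it at an earlier start, and n-TFgaa3 lies 69 bp outside. The 250 bases before the start used in the RefSeq promoter table (chr10:80249199-80249448, plus strand) hold the last 34 bases of n-TNgtt7, in capitals.
Ndufs7 window: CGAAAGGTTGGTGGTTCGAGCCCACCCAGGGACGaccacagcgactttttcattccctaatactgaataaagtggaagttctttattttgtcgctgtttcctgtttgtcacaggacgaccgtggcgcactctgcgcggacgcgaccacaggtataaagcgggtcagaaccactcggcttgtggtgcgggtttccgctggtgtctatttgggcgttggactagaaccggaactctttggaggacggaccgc
The ChIP summit is at base 167 and the CUT&RUN summit at base 186. TGTGGT stood at base 179 on the printed strand, between the summits, and at bases 35 and 144 on the opposite strand. None was in the tRNA gene.

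A like arrangement was seen at Prmt5, an arginine methyltransferase gene whose promoter overlaps n-TRacg6 (chr14:54517696-54517768). The 250 bases before its start (chr14:54517471-54517720, minus strand) carry 25 bases of the tRNA gene, in capitals.
Prmt5 window: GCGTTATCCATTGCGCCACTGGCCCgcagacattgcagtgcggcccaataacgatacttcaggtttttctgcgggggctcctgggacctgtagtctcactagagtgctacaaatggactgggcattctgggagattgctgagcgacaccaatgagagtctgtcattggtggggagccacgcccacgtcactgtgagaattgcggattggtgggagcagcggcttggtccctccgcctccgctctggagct
The ChIP summit is at base 66, 41 bp from the tRNA gene, with a pileup of 9. The CUT&RUN summit is at base 154, 129 bp from it, with a pileup of 76 (59.9 to 95.1). ChIP here lay nearer the tRNA gene and CUT&RUN nearer the start of Prmt5.

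ChIP shares fell with distance from protein-coding edges in both windows. The CUT&RUN share within 500 bp was highest within 1 kb of an edge, and CUT&RUN summits within 100 bp did not follow this order. Of the 44 genes with a CUT&RUN summit within 500 bp, 19 had a protein-coding edge within 1 kb, and none had an edge over 20 kb away. Of the 49 tRNA genes with an edge within 1 kb, 19 had a CUT&RUN summit within 500 bp (38.8%, 25.2 to 53.8), 22 had a ChIP summit there (44.9%) and 10 had a ChIP summit within 100 bp (20.4%, 10.2 to 34.3). None of these 49 had a CUT&RUN summit within 100 bp. By a floor of 3 counts, used here for several counts of 0, this allows a share of up to 6.12% (exact 95% upper bound 7.25%). Of the 159 genes with an edge at 5 to 20 kb, 19 had a ChIP summit within 100 bp (11.9%) and 5 a CUT&RUN summit, and within 500 bp 42 (26.4%) and 19 (11.9%) did. For the 57 genes with an edge at 1 to 5 kb, the ChIP share within 500 bp was 35.1% and the CUT&RUN share 10.5%. Of the 138 genes over 20 kb from an edge, 5 had a ChIP summit within 100 bp (3.62%, 1.19 to 8.25), as many as within 500 bp, and 0 a CUT&RUN summit within 500 bp. These 138 include the 48 genes of a single cluster on chromosome 6, which had no summit of either list within 500 bp. Among genes with a ChIP summit within 100 bp, 33 of 43 had their edge over 1 kb away. The 34 members inside a protein-coding gene had 4 with a ChIP summit within 100 bp (11.8%), and the 369 outside had 39 (10.6%).

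The isotypes differed in their counts. ChIP had a summit within 100 bp of at least 1 gene for 13 of the 20 isotypes and CUT&RUN for 6. At 500 bp these numbers were 20 and 19. Glutamate had the most genes with a ChIP summit within 100 bp, 6 of 20 (30%, 11.9 to 54.3). Histidine had 4 of 11 (36.4%, 10.9 to 69.2), aspartate 4 of 16, serine 5 of 22, valine 5 of 22, threonine 4 of 17, arginine 4 of 24, glycine 3 of 28, and tryptophan 2 of 8. Asparagine and proline had 2 of 13 and 2 of 16, and lysine and leucine 1 of 26 and 1 of 25. Genes of 1 isotype share sequence and often a cluster, so they are not independent, and 3 of the 4 histidine genes lie within 3 kb.

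The isotypes with no ChIP summit within 100 bp were alanine (33 genes), cysteine (56), isoleucine (16), glutamine (16), methionine (16), tyrosine (10) and phenylalanine (7). For cysteine the floor of 3 counts allows a share of up to 5.36% (exact upper bound 6.38%), and for alanine up to 9.09% (10.6%). The exact interval of cysteine did not overlap those of glutamate, histidine, aspartate, serine, valine and threonine and overlapped those of the other isotypes. Of the 56 cysteine genes, 47 lie in a single cluster on chromosome 6, so they are not independent. The interval does not allow for this. The intervals of the isotypes with a summit overlapped each other. Tyrosine had a ChIP summit within 500 bp at 4 of 10 genes and a CUT&RUN summit at 4 of 10. Alanine had 2 and 4 of 33 at 500 bp, all of them with the anticodon AGC, while the 9 CGC and 11 TGC genes had none. The exact upper bounds for CGC and TGC, 33.6% and 28.5%, are above the 22.1% (ChIP) and 10.9% (CUT&RUN) of all tRNA genes. Within glutamate, 4 of 12 CTC genes and 2 of 8 TTC genes had a ChIP summit within 100 bp. Valine had 7 of 22 genes with a ChIP summit within 500 bp and 0 with a CUT&RUN summit, the only isotype without one. For this 0 the floor of 3 counts allows a share of up to 13.6% (exact upper bound 15.4%). Both limits are above the 10.9% of all tRNA genes.

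**Figure D4:**
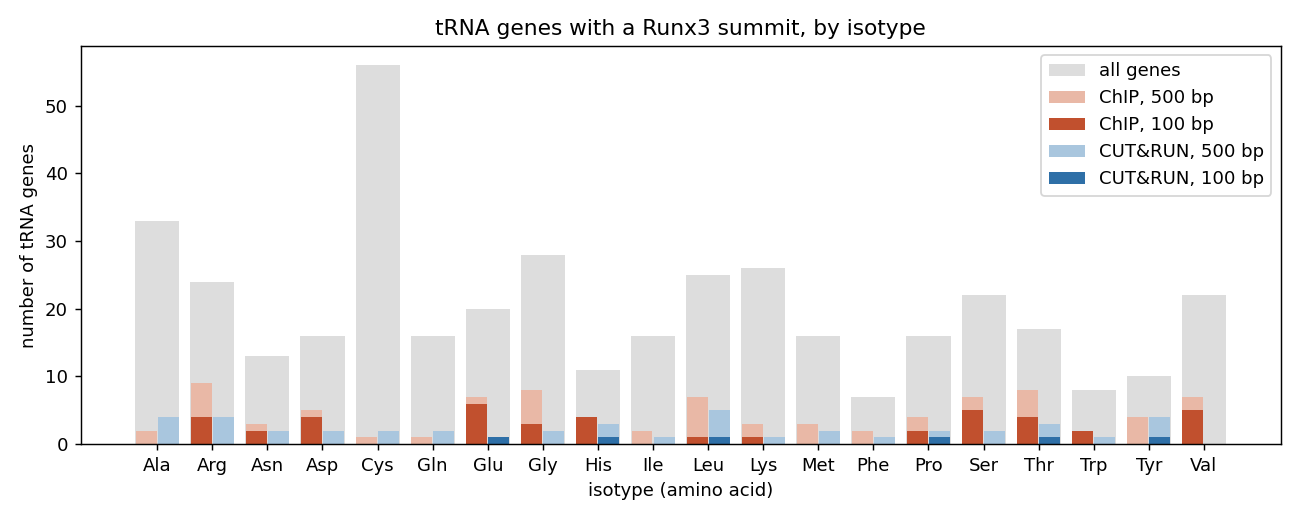
Number of tRNA genes of each isotype (grey) and of those with a Runx3 summit within 100 bp (dark) or 500 bp (light) in ChIP (red) and CUT&RUN (blue). Glutamate reaches 6 genes with a ChIP summit within 100 bp, and cysteine, with 56 genes, has none. Valine has a CUT&RUN summit within 500 bp at 0 of 22 genes (exact upper bound 15.4%, against 10.9% of all tRNA genes).

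By position, 280 genes stood in 20 clusters (at least 3 genes with gaps of at most 50 kb), 26 in pairs and 97 alone. Of the clusters, 13 held a ChIP summit within 100 bp of a member and 2 a CUT&RUN summit. The largest cluster, 48 genes in 230 kb on chromosome 6 (chr6:48133937-48363603), had no summit of either list within 500 bp, where the floor of 3 counts allows a share of up to 6.25% (exact upper bound 7.40%). By their symbols 47 of its genes are cysteine tRNA genes, and the symbol of the last, n-Tcgca44, gives no isotype. Also without a ChIP or CUT&RUN summit within 500 bp were both X chromosome clusters (8 and 4 alanine genes), 9 genes of chromosome 13 (chr13:23270421-23317538) and 3 genes of chromosome 9. Their exact upper bounds, in that order, were 36.9%, 60.2%, 33.6% and 70.8%. All are above the shares of all tRNA genes within 500 bp, 22.1% in ChIP and 10.9% in CUT&RUN. Without the chromosome 6 cluster, the ChIP share within 100 bp was 12.1% of 355 genes.

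The cluster of 3 histidine genes in 2.55 kb (chr2:122375494-122378039) had a ChIP summit inside all 3 genes, the only cluster with a ChIP summit within 100 bp of every member. CUT&RUN had a summit inside n-THgtg4 and at 181 and 116 bp from n-THgtg3 and n-THgtg5, with pileups of 22, 24 and 26. On chromosome 3, a cluster of 4 genes in 1.11 kb (n-TRacg3, n-TYgta1, n-TYgta2, n-TAagc14) had ChIP summits within 500 bp of all 4 and CUT&RUN summits within 500 bp of 3. The other chromosome 3 cluster, 25 genes in 179 kb, had ChIP summits within 100 bp of 4 genes and no CUT&RUN summit within 500 bp of any. Its members n-THgtg8, n-TGtcc7 and n-TEctc13 carry 3 of these within about 1 kb, and n-TNgtt5 the last.

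On chromosome 11, the cluster of 18 genes of 11 isotypes (chr11:69037003-69125248) had 5 genes with a ChIP summit within 100 bp, 9 within 500 bp and 0 with a CUT&RUN summit. The 8 genes of chr19:12002236-12012338 had ChIP summits at 1 and 5 genes in these windows, and no CUT&RUN summit. Among the 7 genes of chr14:51063883-51090718, near Rnase4, ChIP had 2 and 6, and CUT&RUN had 2 within 500 bp, where a single summit with a pileup of 66 (51.0 to 84.0) served both n-TTtgt1 and n-TYgta10. The 4 clusters of chromosome 13 held 101 members, of which 8 (7.92%, 3.48 to 15.01) had a ChIP summit within 100 bp and 14 within 500 bp, and 0 and 3 a CUT&RUN summit. For the 25 genes on chromosome 1 (chr1:171033942-171111515) the ChIP counts were 2 and 3, and CUT&RUN had none.

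**Figure D5:**
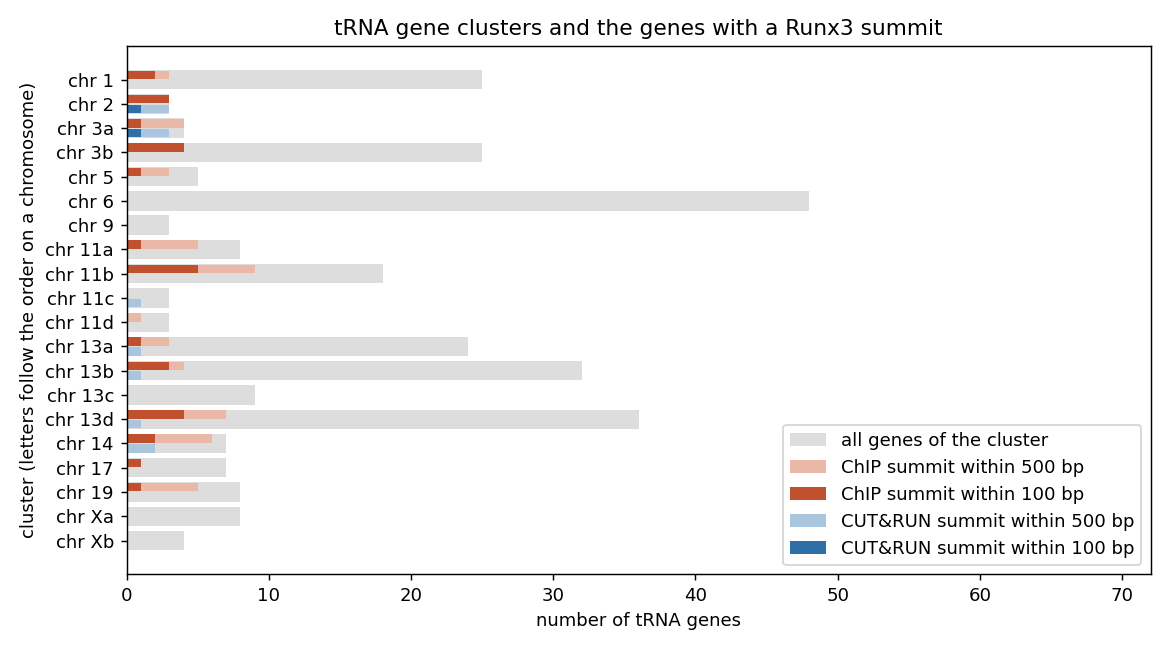
Number of genes in each of the 20 tRNA gene clusters (grey) and of those with a Runx3 summit within 100 bp (dark) or 500 bp (light) in ChIP (red, upper bar) and CUT&RUN (blue, lower bar). The cluster of 48 genes on chromosome 6 has none, the 3 genes on chromosome 2 all have a ChIP summit, and 13 of 20 clusters have at least 1 ChIP summit within 100 bp.

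Single and clustered genes were compared in both windows, with no test of the difference between assays. A CUT&RUN summit within 500 bp was found at 23 of 97 single genes (23.7%, 15.7 to 33.4) and 12 of 280 clustered genes (4.29%, 2.23 to 7.37). A ChIP summit within 100 bp was found at 12 of 97 (12.4%, 6.56 to 20.6) and 29 of 280 (10.4%, 7.05 to 14.5), and within 500 bp at 25.8% and 20.7%. Within 100 bp CUT&RUN had 2 of the 97 and 2 of the 280. Without the chromosome 6 cluster, 232 clustered genes were left, with ChIP shares of 12.5% within 100 bp and 25% within 500 bp. A CUT&RUN summit lay within 500 bp of 12 of these 232 (5.17%, 2.70 to 8.86). Of the 26 genes in pairs, 9 (34.6%) had a CUT&RUN summit and 6 a ChIP summit within 500 bp. Single genes were also nearer to protein-coding genes. With those within 1 kb of an edge set aside, CUT&RUN within 500 bp had 10 of 74 single genes (13.5%, 6.68 to 23.5) and 11 of 261 clustered genes (4.21%, 2.12 to 7.42). ChIP within 100 bp had 5 of 74 (6.76%) and 27 of 261 (10.3%). The 261 include the chromosome 6 cluster.

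The genes that make and handle tRNAs often had a summit within 500 bp of the gene in both lists, against 31.3% of protein-coding genes in ChIP and 36.5% in CUT&RUN. Of 13 subunits of RNA polymerase III, 9 had one in ChIP and 9 in CUT&RUN. Polr3e, whose edge is 180 bp from n-TLaag4, had pileups of 18 and 39 at its best ranked summits, and Polr3d and Polr1c had no summit in either. Of 13 genes of TFIIIB, TFIIIC and their regulators, 11 and 10 had one. Maf1, the repressor of the polymerase, led with a ChIP pileup of 35 (rank 387) and a CUT&RUN pileup of 86 (rank 817), and Gtf3a, the factor for 5S rRNA genes, had none. Of 19 tRNA processing genes 12 had one in each list, among them Elac2, the enzyme that trims the 3′ end (18 and 50). Of 20 cytosolic aminoacyl-tRNA synthetase genes, which load tRNAs with amino acids, 10 had one in ChIP and 16 in CUT&RUN, with Gars at 28 and 43. These protein-coding genes are far longer than tRNA genes, and the counts are a description.

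Of 9 other genes listed as read by RNA polymerase III, 8 were matched, too few for a comparison with the tRNA genes. ChIP had a summit within 100 bp at 2 (Rmrp and Vaultrc5) and CUT&RUN at 5 (Rmrp, Vaultrc5, Rn7sk, Rn7s1 and Rn7s2), and within 500 bp the counts were 4 and 5. Rpph1, the RNA of RNase P, had a ChIP summit at 172 bp (pileup 9) and no CUT&RUN summit within 7409 bp. Rn7s1, a gene of the 7SL RNA of the signal recognition particle, had a CUT&RUN summit inside with a pileup of 93 and rank 493, and its nearest ChIP summit was 375 bp away with a pileup of 7. Rmrp, the RNA of RNase MRP, had pileups of 16 in ChIP and 48 in CUT&RUN, both inside the gene. The Y RNA genes Rny1 and Rny3 had none within 500 bp in either list.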

How the data were processed

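The analysis used 2 MACS2 peak lists, 1 per anti-Runx3 library. Alignment was by Bowtie to mm10 per the submitters' processing notes, and its settings are not given in the sources used here, for either library. The authors called peaks with MACS2 (version 2.1.1.20160309) in paired-end mode, keeping 1 fragment per position, per the file headers. The q threshold was 0.05 for ChIP, with the whole cell extract as control, and 1e-05 for CUT&RUN, which had none. The control's alignment is named for the removal of non-unique reads and the ChIP library's is not. The deposited lists give the pileup (a coverage signal), −log10 p-values and q-values, and a fold ratio over the expected background, all as each peak's own value from the authors' caller.

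A summit's distance to a gene was 0 inside the gene span and otherwise counted in bp from its nearer end; the table gives no strand. Peaks were ranked by q, then pileup, then number. Shares have exact Clopper-Pearson and pileups exact Poisson 95% intervals, for counting error only, since PCR copies are not independent molecules. For several counts of 0, the share that 3 counts would give, or the exact upper bound, is printed as a limit. No test between assays was possible with 1 library each. Named genes were those with a summit of both lists within 100 bp and the 10 best ranked of each list. In the gene lists Rnu6atac had no match. The members and lists were chosen with earlier results of these data known. Distances were tested on simulated data. Python 3.11.15, pandas 2.3.3 and scipy 1.17.1 were used.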

Additional observations from a re-analysis of the deposited data

Results flagged for a closer look

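The mitochondrial tRNA genes are not among the members and were set apart because a signal appeared there in 1 list. A CUT&RUN summit lay within 100 bp of 5 of the 22 mitochondrial tRNA genes (22.7%, exact 95% interval 7.82 to 45.4), though inside none, and within 500 bp of 14. These came from 19 mitochondrial peaks with pileups of 270 to 508. ChIP had 0 mitochondrial peaks, and among 13166 peaks a count of 0 leaves room for 0.0228% of the list. Peak calling used a control for ChIP alone, and the lists differ in this respect. Groups of 1 library allowed no search for libraries that stand apart.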

How the results depend on the processing

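Of 58 alternatives, 39 stayed within the interval of the main share or within 1.5 times the main count and 19 moved. With the stronger 0.5 of each list, ChIP shares were 4.96% (100 bp) and 11.7% (500 bp) and CUT&RUN shares 0.248% and 4.96%. At q of 1e-05 or less, the ChIP shares were 6.20% and 12.9%. Counting any overlap of the peak interval, the shares at 100 bp were 17.6% in ChIP and 5.46% in CUT&RUN. Windows of 50, 200 and 1000 bp gave 9.18%, 14.1% and 26.8% in ChIP and 0.993%, 4.71% and 12.2% in CUT&RUN. Leaving out genes within 1 kb of a protein-coding edge, the CUT&RUN share at 500 bp was 7.06%. The number of genes with a summit in both lists was 3 at 100 bp and 31 at 500 bp, and 4 when a ChIP summit within 100 bp of the gene had a CUT&RUN summit within 100 bp of it. The ChIP share was above the CUT&RUN share under each of these alternatives. The fall with fewer peaks follows from counting fewer peaks; for the others, apart from the windows, the cause was not tested. Merging near genes and leaving out high-background peaks moved no share beyond the limits set above. Other cluster gaps and counting list genes at 1 kb of an edge moved no count beyond them, though some counts changed. Clusters with a ChIP summit were 13 of 20 at a gap of 50 kb, 18 of 37 at 10 kb and 13 of 18 at 200 kb. At 1 kb of an edge, tRNA processing genes with a ChIP summit went from 12 to 9, and those with a CUT&RUN summit stayed at 12. The counts at 1 kb of an edge, and the shares without the chromosome 6 cluster, were chosen after seeing the data. No paired analysis was possible because each group has 1 library. The CUT&RUN counts at 100 bp rest on 6 genes, and the part of depth in the counts was not tested.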
